A study of Mus musculus with 2 samples.

Results

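The genes for adhesion molecules by which vessel walls and stroma capture leukocytes were examined in sequenced RNA of mouse cavernous endothelial cells (MCECs) in culture. They were the 10 symbols Icam1, Icam2, Vcam1, Sele, Selp, Madcam1, F11r, Jam2, Jam3 and Alcam, out of 23183 symbols in the files. Each had 1 row in both files. There was 1 library of MCECs kept in high glucose with the vehicle HBS (HG+HBS) and 1 of MCECs kept in high glucose with PC-NVs (HG+PC-NVs), called below the libraries with HBS and with PC-NVs. HBS is HEPES-buffered saline, and PC-NVs are nanovesicles made by pushing cultured mouse cavernous pericytes through membranes of falling pore size. High glucose was 30 mM and PC-NVs were added at 1 µg/mL. By the methods, RNA was taken after 72 hours of glucose and 24 hours of PC-NVs, whereas the sample labels give 5 days of glucose. Both cultures were primary cells of passages 2 to 4 from 8-week-old male C57BL/6J mice, grown as sprouts from penile tissue in medium with 20% serum and heparin, to which the methods add VEGF, and serum-starved for 24 hours before the glucose condition. How many animals stand behind each library was not given in the sources used here. With 1 library per condition, the spread between cultures is unknown, no difference below was tested against it, no p-value was computed, and intervals cover counting error only.

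Leukocytes leave the blood in steps. Selectins on the vessel wall (E-selectin, P-selectin) bind sugars on passing leukocytes and make them roll, then immunoglobulin-like ligands (ICAMs, VCAM-1, MAdCAM-1) bind leukocyte integrins and arrest them, and junctional adhesion molecules (JAMs) guide their passage between cells. ICAM-1, VCAM-1 and the selectins are known as genes that inflammatory cytokines switch on through NF-kB, whereas ICAM-2 is made by resting endothelium. VCAM-1, ICAM-1 and ALCAM are also made by fibroblasts and mural cells, and P-selectin is also carried by platelets.

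Levels are given as normalized FPKM (fragments scaled by transcript length and library size), obtained as 2 to the power of the deposited value, minus 1. FPKM is per length, so levels can be set side by side between genes. From the steps in which low values come, the libraries held roughly 13300000 (HG+HBS) and 11600000 (HG+PC-NVs) fragments. The cultures carried the label of endothelial cells, but most endothelial markers were low. Pecam1 had 1.05 FPKM with HBS and 0.938 FPKM with PC-NVs, and Cdh5, which encodes VE-cadherin, had 5.05 and 5.73 FPKM. Kdr (0.518 and 0.438 FPKM), Tek (0.137 and 0.128 FPKM), Vwf (0.158 and 0.128 FPKM) and Erg (0.133 and 0.136 FPKM) were under 1 FPKM in both libraries, as were 13 of the 20 endothelial markers, and none of the 20 was at 0 in both. Eng (29.0 and 21.4 FPKM), Esam (17.4 and 11.7 FPKM), Egfl7 (9.48 and 8.57 FPKM) and Plvap (4.90 and 2.36 FPKM) were above 1 FPKM in both. The summed level of the endothelial list was 71.5 FPKM with HBS and 53.9 FPKM with PC-NVs, against 2306 and 2593 FPKM for 12 fibroblast markers. Such sums are over different genes and do not measure shares of cells. The fibroblast sum was higher with PC-NVs through Dcn, the gene for the matrix proteoglycan decorin (623 and 1283 FPKM), whereas 9 of the 11 fibroblast markers with a mean of at least 1 FPKM had log2 ratios below 0 and the median was -0.24. The 14 pericyte and smooth muscle markers summed to 148 and 110 FPKM. Of the 10 with such a mean, 2 were over 2-fold higher and 2 over 2-fold lower with PC-NVs, against 2.47% and 0.829% of all genes. Higher were the pericyte genes Rgs5 (1.69 and 7.23 FPKM) and Kcnj8 (7.98 and 20.4 FPKM), and lower were the contractile genes Acta2 (27.6 and 8.02 FPKM) and Tagln (17.3 and 7.34 FPKM). The pericyte genes did not move together, as Cspg4 (20.4 and 12.2 FPKM) and Anpep (26.7 and 13.7 FPKM) had lower levels with PC-NVs. Of the 10 markers, 3 had log2 ratios above 0 and 7 below, with a median of -0.23. The plot of marker levels shows these lists side by side.

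**Figure D1:**
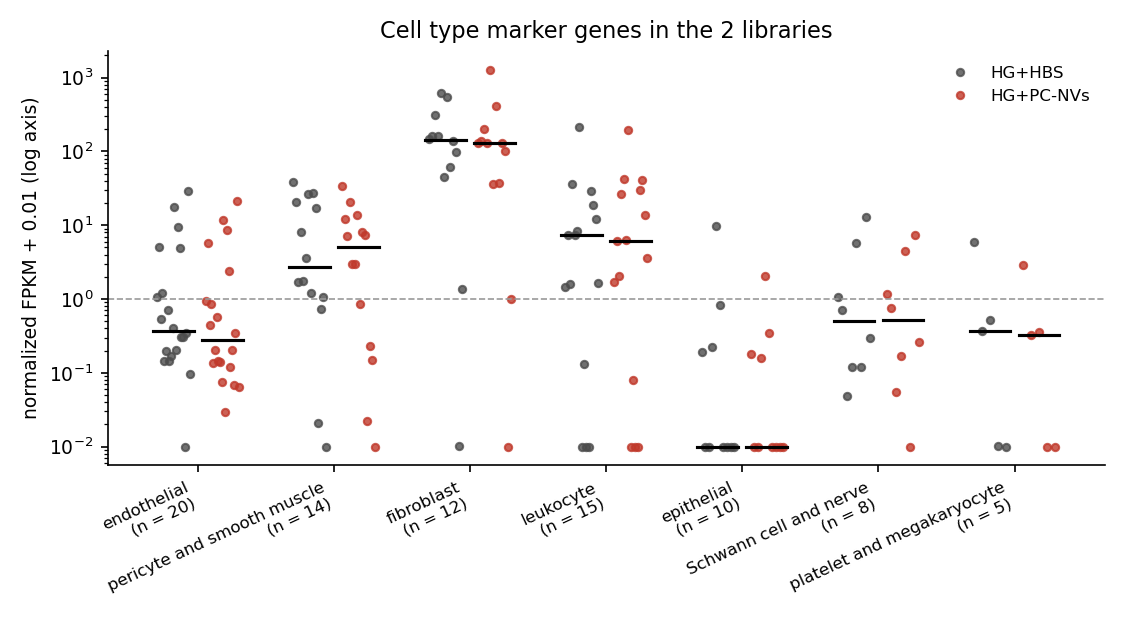
Normalized FPKM + 0.01 (log axis) of the genes of 7 cell type marker lists in HG+HBS (grey) and HG+PC-NVs (red), with 1 point per gene, a black line at the median of each list, and a dashed line at 1 FPKM. The fibroblast list has a median of 144 FPKM with HBS and 128 FPKM with PC-NVs, and the endothelial list one of 0.364 and 0.265 FPKM.

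Leukocyte RNA was present in both libraries. The 15 leukocyte markers with a row (1 of 16 had none) summed to 336 FPKM with HBS and 366 FPKM with PC-NVs, most of it Lyz2, the lysozyme gene of macrophages (212 and 193 FPKM). Cd3e, Ms4a1 and Nkg7, markers of T, B and NK cells, were listed at 0 in both. Of the 11 leukocyte markers with a mean of at least 1 FPKM, 2 were over 2-fold higher with PC-NVs and 0 lower, against 2.47% and 0.829% of all genes. The median log2 ratio of the 11 was 0.13. The 2 were Adgre1, which encodes the macrophage antigen F4/80 (7.44 FPKM with HBS and 42.5 FPKM with PC-NVs), and Fcer1g, which encodes the Fc receptor gamma chain (18.8 and 41.1 FPKM). The macrophage genes Cd68 (36.2 and 26.3 FPKM) and Csf1r (8.39 and 6.20 FPKM) had lower levels with PC-NVs, and the common leukocyte antigen gene Ptprc had 1.44 and 1.67 FPKM. The 5 platelet markers summed to 6.80 and 3.55 FPKM, of which Pf4 made up 5.93 and 2.88 FPKM, and 4 of the 5 were under 1 FPKM in both libraries. The 10 epithelial markers summed to 10.8 and 2.70 FPKM, with 5 at 0 in both, and the 8 markers of Schwann cells and nerve to 20.9 and 14.1 FPKM. In bulk RNA, fewer cells of a type and less RNA per cell cannot be told apart, and the part of these cell types in the values of the adhesion genes was not tested.

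Vcam1, which encodes the ligand of the alpha4 integrins on monocytes and lymphocytes, was the most abundant of the 10 genes in both libraries. It lies on chromosome 3 of GRCm38 from 116109949 to 116129688 on the reverse strand (GENCODE M21, as for all genes below). Its level was 82.4 FPKM with HBS and 147 FPKM with PC-NVs, from about 3817 and 5944 fragments. The level was thus 1.79 times as high with PC-NVs (95% Wilson interval 1.71 to 1.86), which places the whole interval below 2-fold. On the scale used for comparing all genes, log2 of FPKM + 1, the ratio was 0.83. Vcam1 ranked 946 among all symbols by level with HBS and 536 with PC-NVs.

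Icam1, whose product binds the leukocyte integrins LFA-1 and Mac-1, came after Vcam1 and Alcam by level. It lies on chromosome 9 from 21015985 to 21028817. Its level was 33.3 FPKM with HBS and 44.1 FPKM with PC-NVs, a ratio of 1.33 (1.22 to 1.44) from about 1125 and 1300 fragments. The log2 ratio was 0.40, so Icam1 differed less between the libraries than Vcam1, and the counting intervals of the 2 ratios did not overlap.

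The other ligands of this group were near the limit of detection. Icam2, the ICAM of resting endothelium (chromosome 11, 106377656 to 106388075), had 0.577 FPKM with HBS and 0.422 FPKM with PC-NVs, from about 10 and 6 fragments. Its ratio of 0.732 had an interval of 0.260 to 1.82, so a difference in either direction was not detectable at this depth. Madcam1, the addressin of gut and lymphoid vessels (chromosome 10, 79664559 to 79668537), had 0.167 and 0.196 FPKM, or about 3 fragments in each library, and no fold is given for it. These 2 genes had a mean under 1 FPKM and are left out of the counts over genes below.

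Both selectin genes of the vessel wall were higher in HG+PC-NVs, from low levels. Sele, which encodes E-selectin, lies on chromosome 1 from 164048234 to 164057677, and had 7.62 FPKM with HBS and 12.4 FPKM with PC-NVs. The ratio was 1.63 (1.41 to 1.90), from about 296 and 422 fragments, and the log2 ratio 0.64. Selp, which encodes P-selectin, lies on the same chromosome from 164115264 to 164150026, and had 3.34 and 6.73 FPKM. The ratio was 2.01 (1.65 to 2.46), from about 153 and 269 fragments, the highest point estimate among the 10 genes. The pseudocount of 1 FPKM lowers such ratios for genes of low level, and on that scale the Selp fold was 1.78 (log2 0.83), level with Vcam1. The interval of Selp overlapped those of Vcam1 and Sele, so the 3 could not be ranked by their ratios at this depth.

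**Figure D2:**
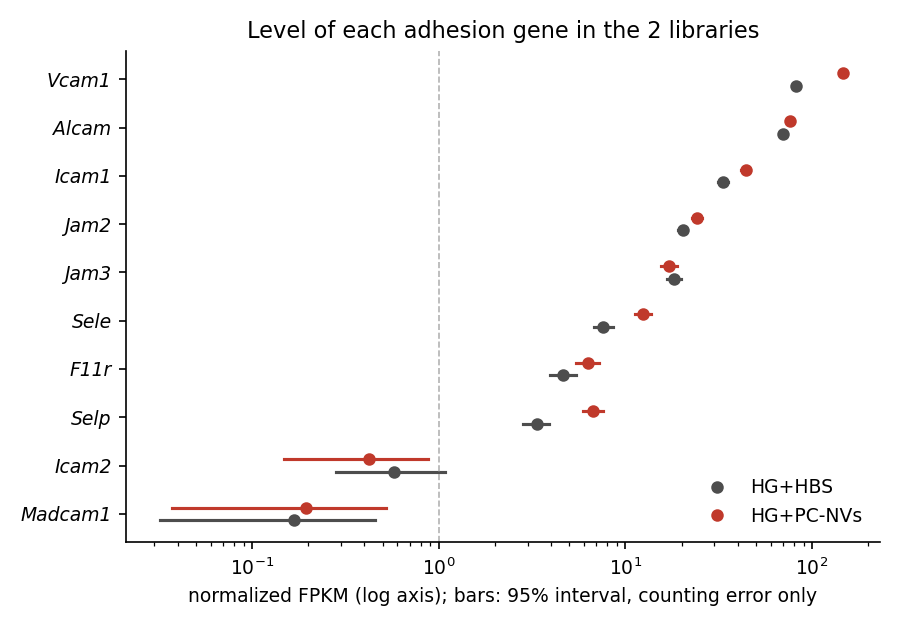
Normalized FPKM (log axis) of the 10 adhesion genes in HG+HBS (grey) and HG+PC-NVs (red), with bars for 95% exact Poisson intervals of the estimated fragments and a dashed line at 1 FPKM. Vcam1 is highest in both libraries (82.4 and 147 FPKM), Icam2 and Madcam1 are under 1 FPKM in both, and the bars of the 2 libraries are apart for Vcam1, Alcam, Icam1, Jam2, Sele and Selp.

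The stretch before the start of Icam1, Sele and Selp is shown. Of the members named above as switched on by cytokines, these had RefSeq promoter sequence at hand, and all of them had ratios above 1. So did F11r (1.35) and Alcam (1.08), which also had an entry, and 48.4% of all genes. A link between matches and ratios was not tested. Madcam1 also had an entry, but was near the limit of detection and is not printed. The 250 bases upstream of each RefSeq start are given 5′ to 3′ in the gene's direction (RefSeq, GRCm38.p6, all on the forward strand), at chr9:21015690-21015939 for Icam1, chr1:164047984-164048233 for Sele and chr1:164115014-164115263 for Selp. Capitals mark matches, on either strand, to 3 motifs, the kB-like GGNNNTTCC, the AP-1 motif TGANTCA and the STAT-type motif TTCNNNGAA.
Icam1: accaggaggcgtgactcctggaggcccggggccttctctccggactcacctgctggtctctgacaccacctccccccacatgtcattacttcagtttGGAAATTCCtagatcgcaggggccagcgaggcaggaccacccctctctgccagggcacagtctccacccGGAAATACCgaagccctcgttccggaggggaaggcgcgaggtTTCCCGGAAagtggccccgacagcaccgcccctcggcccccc
Sele: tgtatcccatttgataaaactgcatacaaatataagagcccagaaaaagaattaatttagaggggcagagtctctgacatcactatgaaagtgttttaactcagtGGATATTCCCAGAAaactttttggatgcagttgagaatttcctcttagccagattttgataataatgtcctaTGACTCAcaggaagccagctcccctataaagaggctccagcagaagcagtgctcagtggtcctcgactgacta
Selp: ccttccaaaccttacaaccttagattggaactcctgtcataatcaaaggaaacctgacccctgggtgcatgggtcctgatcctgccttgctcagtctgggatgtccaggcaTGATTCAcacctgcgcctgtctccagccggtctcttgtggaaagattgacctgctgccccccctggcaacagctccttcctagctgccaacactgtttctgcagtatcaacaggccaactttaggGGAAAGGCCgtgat

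In Icam1 the capitals are, from the left, a kB-like match in which both strands contain the motif, a kB-like match on the reverse strand and a STAT-type match. In Sele they are a kB-like match that runs into a STAT-type match and, nearer to the start, an AP-1 match. In Selp they are an AP-1 match and a kB-like match on the reverse strand, 14 to 6 bases before the start. Of the 10 genes, 6 had an entry, and Icam2, Vcam1, Jam2 and Jam3 did not. A kB-like match was in 4 of the 6 (Icam1, Sele, Selp and Madcam1), against 15.7% of the 32851 promoters of all genes. An AP-1 match was in 3 of the 6 (Sele, Selp and F11r), against 6.75% of all, and a STAT-type match in 2 (Icam1 and Sele), against 7.02%. Alcam held none of the 3. A match describes the letters only. Madcam1, with 2 kB-like matches, was among the genes near the limit of detection.

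The 3 genes for junctional adhesion molecules had ratios from 0.941 to 1.35. F11r, which encodes JAM-A, a tight junction protein that binds LFA-1 (chromosome 1, 171437535 to 171464603), had 4.65 FPKM with HBS and 6.27 FPKM with PC-NVs, a ratio of 1.35 (1.09 to 1.67). Jam2, which encodes JAM-B, the partner of JAM-C at vessel junctions (chromosome 16, 84774123 to 84825928), had 20.2 and 24.2 FPKM, a ratio of 1.20 (1.10 to 1.30). Jam3, which encodes JAM-C (chromosome 9, 27097384 to 27155421), had 18.2 and 17.1 FPKM, a ratio of 0.941 (0.822 to 1.08). Jam3 was the only one of the 8 genes with a mean of at least 1 FPKM that was lower in HG+PC-NVs, and its interval spans 1. Their log2 ratios were 0.37 for F11r, 0.25 for Jam2 and -0.08 for Jam3.

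Alcam, which encodes the ligand of CD6 on T cells and also binds itself (chromosome 16, 52248996 to 52454074), was second by level in both libraries. It had 70.1 FPKM with HBS and 75.7 FPKM with PC-NVs, a ratio of 1.08 (1.04 to 1.12) from about 5649 and 5318 fragments, and a log2 ratio of 0.11. Its interval is narrow because the gene is abundant and its transcript long, and a small change in scaling moves such a ratio by as much (quantile normalization between the libraries gave 0.04 on the log2 scale).

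**Figure D3:**
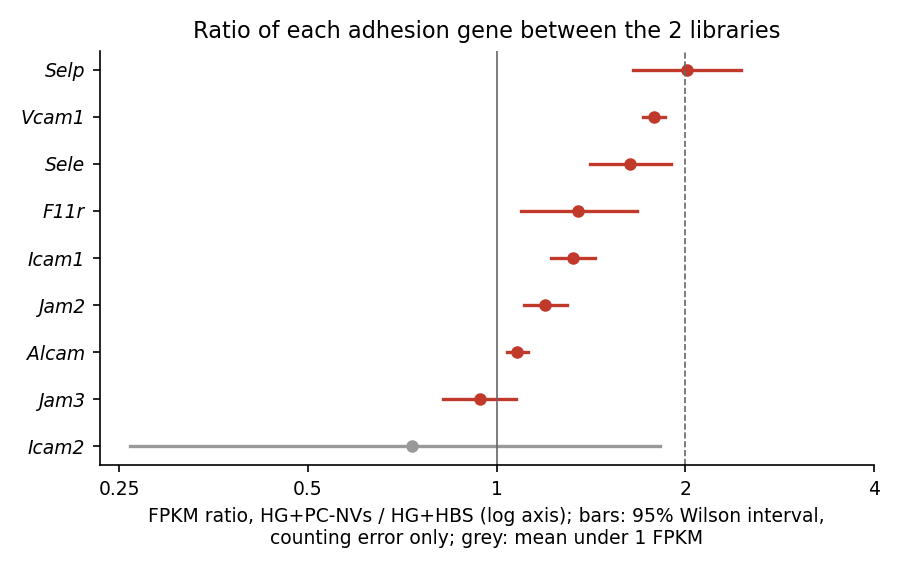
FPKM ratio of HG+PC-NVs to HG+HBS (log axis) for 9 adhesion genes (Madcam1, with about 3 fragments in each library, is left out), with 95% Wilson intervals for counting error, a solid line at 1 and a dashed line at 2. Selp (2.01), Vcam1 (1.79) and Sele (1.63) are highest, and the intervals of Jam3 and Icam2 span 1.

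The order of levels in HG+HBS was Vcam1, Alcam, Icam1, Jam2, Jam3, Sele, F11r, Selp, Icam2 and Madcam1. The counting intervals of neighbours overlapped for Jam2 and Jam3 and for Icam2 and Madcam1. In HG+PC-NVs the order was the same except that Selp stood before F11r, and there the intervals of Selp and F11r and of Icam2 and Madcam1 overlapped. Vcam1 exceeded Alcam 1.18-fold with HBS and 1.94-fold with PC-NVs. Summed over the 10 genes, the level was 241 FPKM with HBS and 334 FPKM with PC-NVs. The sums over all rows were 521666 and 580717 FPKM, so the total was also higher with PC-NVs. Of the sum over the 10 genes, Vcam1 held 34.3% with HBS and 44.0% with PC-NVs. It accounted for 69.1% of the difference between the 2 sums over the 10 genes.

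Against all genes, the adhesion genes were counted among the 11828 symbols with a mean over both libraries of at least 1 FPKM, of which 8 were members. The members were chosen with earlier results of these data known, so the counts below are descriptions and no test. A gene was called when FPKM + 1 differed more than 2-fold. None of the 8 was called higher, against 2.47% of all genes, and none lower, against 0.829%. At more than 1.5-fold, 3 of the 8 (Vcam1, Sele and Selp) were higher, against 5.47% of all genes, and 0 were lower, against 3.64%. At more than 4-fold, 0 were higher, against 0.634% of all genes, and 0 lower, against 0.0592%. The median log2 ratio of the 8 was 0.38, beside -0.01 over all 11828, and 7 of the 8 were above 0, against 48.4% of all genes. The spread of all genes is not a measure of replicate error, but it gives a scale, with a 5th percentile of -0.51 and a 95th of 0.62.

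Single members can be placed on that scale. A higher ratio than that of Selp was found in 3.22% of the 11828 genes, than that of Vcam1 in 3.25% and than that of Sele in 4.76%. For Icam1 the share was 9.57%, for F11r 10.6%, for Jam2 16.9%, for Alcam 31.6% and for Jam3 62.6%. Ratios of low genes scatter more, so the same share was taken among genes whose mean lay within 2-fold of the member's. It was 3.65% of 1123 genes for Vcam1, 3.59% of 4766 for Sele and 3.02% of 3844 for Selp. These 3 genes thus lay near the upper edge of all genes also at their own level. The 5 symbols whose 2 levels were nearest to those of Selp were Fgfr1op, Ifitm1, Rps27, Zc3h12c and Hcls1, at distances of 0.0084 to 0.13 on the log2 scale over 2 libraries.

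**Figure D4:**
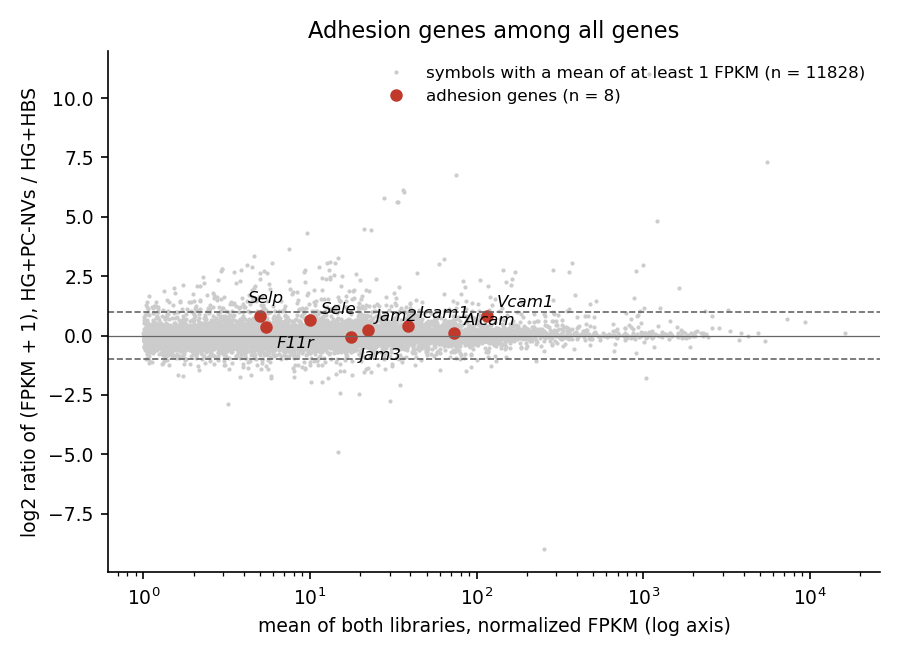
Log2 ratio of (FPKM + 1), HG+PC-NVs over HG+HBS, against the mean level of both libraries (log axis), for 11828 symbols (grey) and the 8 adhesion genes among them (red), with dashed lines at a 2-fold difference. The adhesion genes lie between -0.08 (Jam3) and 0.83 (Selp), inside the dashed lines.

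Genes that act with these molecules were taken from 8 lists, each read beside the 2.47% of all genes called higher and 0.829% called lower at more than 2-fold. The lists were chosen with earlier results of these data known, so their counts are descriptions and no test. Among the leukocyte integrins and other counter-receptors, 8 of 14 had a mean of at least 1 FPKM, and 1 of them was higher and 0 lower. It was Itgal, the alpha chain of LFA-1, the receptor of ICAM-1, with 0.603 FPKM with HBS and 6.94 FPKM with PC-NVs (log2 ratio 2.31). Itgal was under 1 FPKM with HBS and passed the filter on the mean only through its level with PC-NVs, so its call is a description. Its value is a sum over 4 rows. The partner chain of Itgal, Itgb2, had 7.33 and 6.03 FPKM, and Itga4, the alpha chain of the VCAM-1 receptor, 6.85 and 4.93 FPKM. The integrin genes thus lay on both sides of a ratio of 1, and the CD6 gene, for the receptor of ALCAM, was listed at 0 in both libraries.

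Of the 15 genes for selectin ligands and sialomucins, 8 had a mean of at least 1 FPKM, and 0 were higher and 0 lower. The most abundant was Cd34, a sialomucin of vessels and stroma, with 144 and 198 FPKM (log2 ratio 0.46). Of the 20 junction and transmigration genes, 16 had such a mean, 0 were higher and 1 was lower. It was Cav1, which encodes the caveolar protein caveolin 1, with 136 FPKM with HBS and 66.1 FPKM with PC-NVs (log2 ratio -1.03). Of the 18 genes for the cytoskeletal and tetraspanin anchors of ICAM-1 and VCAM-1, 17 had such a mean and 0 were higher or lower, and the most abundant, the tetraspanin gene Cd81, had 342 and 367 FPKM (log2 ratio 0.10).

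The regulators of adhesion gene transcription held the largest share of genes called higher among the 8 lists, which were chosen with earlier results known. Of 22 genes, 20 had a mean of at least 1 FPKM, 6 were higher and 0 lower, and the median log2 ratio was 0.53. Nfkbiz, an atypical I-kappa-B protein, had 4.69 FPKM with HBS and 33.0 FPKM with PC-NVs (log2 ratio 2.58). Tnfaip3, the NF-kB feedback inhibitor A20, had 1.44 and 6.35 FPKM (1.59), and Nfkbia, which encodes I-kappa-B alpha, had 5.68 and 18.4 FPKM (1.54). All 3 are both targets and regulators of NF-kB. The other 3 were Relb, an NF-kB subunit (11.2 and 24 FPKM, 1.04), Cebpb, a transcription factor of the acute-phase response (88.8 and 182 FPKM, 1.03), and Fos, an AP-1 subunit (3.74 and 8.66 FPKM, 1.03). The subunit gene Rela, by contrast, had 30.2 and 34.8 FPKM. Of the 17 receptors that induce adhesion genes, 16 had such a mean, 1 was higher and 0 were lower. It was the Toll-like receptor gene Tlr2, with 6.80 and 27.2 FPKM (1.86).

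Among the 15 genes for the proteases that shed adhesion molecules and for their inhibitors and partners, 14 had a mean of at least 1 FPKM, 3 were higher and 1 lower. The metalloprotease gene Mmp9 had 3.10 FPKM with HBS and 13.5 FPKM with PC-NVs (log2 ratio 1.83). The protease inhibitor gene Timp1 had 619 and 1398 FPKM (1.17), and Rhbdf2, whose product carries ADAM17 to the surface, had 6.50 and 14.1 FPKM (1.01). The gene that was lower was Timp3, the inhibitor of ADAM17, with 14 and 4.65 FPKM (-1.40). Adam17 and Adam10, the sheddases of VCAM-1 and the JAMs, were not called, with 22.9 and 31.3 FPKM and with 36.2 and 44.1 FPKM. Of 16 further adhesion genes of the immunoglobulin superfamily, 11 had such a mean, 1 was higher and 0 were lower, and the one was Cadm3, a nectin-like cell adhesion gene, with 2.46 and 6.03 FPKM (1.02).

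**Figure D5:**
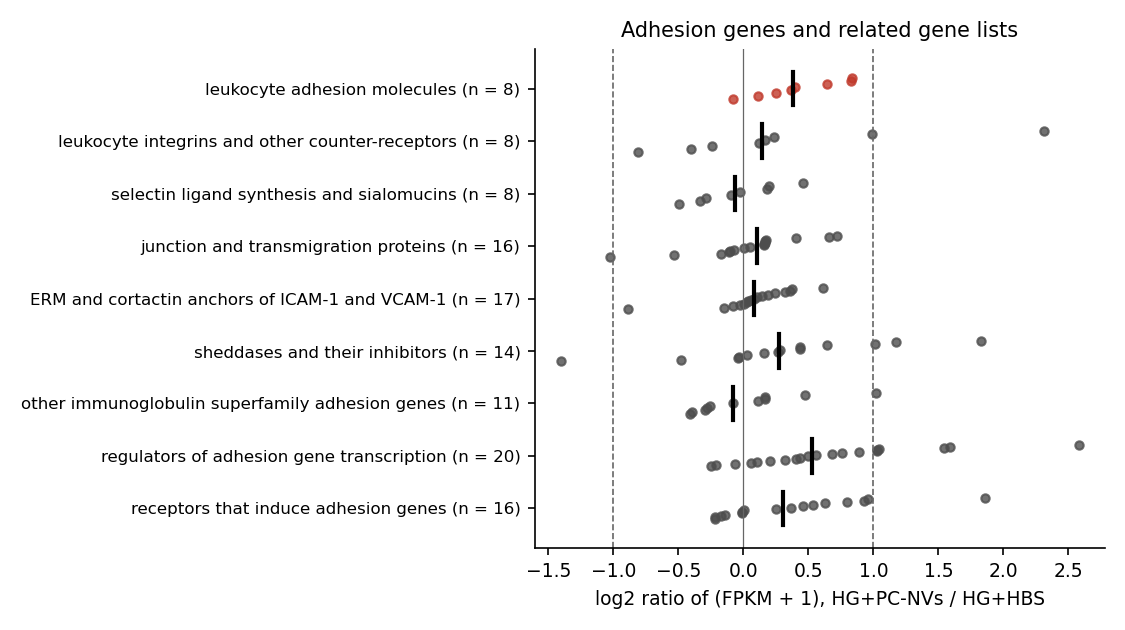
Log2 ratio of (FPKM + 1), HG+PC-NVs over HG+HBS, for the adhesion genes (red) and the genes of 8 related lists (grey) with a mean of at least 1 FPKM, with 1 point per gene, black lines at the medians and dashed lines at a 2-fold difference. The median is 0.38 for the adhesion genes and 0.53 for the regulators of adhesion gene transcription, which hold 6 of the points beyond the upper dashed line.

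Several members lie in gene clusters, whose other genes were looked up after the values of the members had been seen. Icam4 and Icam5 follow Icam1 on chromosome 9, starting 556 and 3256 bases beyond its end. Icam4 had 0.0966 FPKM with HBS and 0.339 FPKM with PC-NVs, and Icam5 had 1.03 and 0.714 FPKM, so neither came near the level of Icam1. F5, the coagulation factor V gene, lies 1812 bases from Selp and had 4.21 FPKM with HBS and 12.4 FPKM with PC-NVs, a log2 ratio of 1.36, above that of Selp. The nearest protein-coding neighbours of Vcam1, Extl2 and Slc30a7, had log2 ratios of 0.01 each. GENCODE M21 places antisense genes over Icam1, Vcam1, Selp and Jam3, and these antisense genes had no row. It also places the long noncoding RNA gene Gm16548 over Selp on the opposite strand, with 0.392 FPKM with HBS and 0.0756 FPKM with PC-NVs. The kit was stranded, but whether reads were counted by strand was not given in the sources used here. Reads of the overlapped members and of the genes opposite to them therefore cannot be told apart.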

How the data were processed

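RNA of MCECs was sequenced as 1 library per condition with a stranded kit after poly(A) selection. Reads were trimmed by the authors, mapped with TopHat to mm10 (per the labels' processing notes), counted with BEDTools, turned into FPKM with Cufflinks, and normalized in R with edgeR by a step that the methods name quantile normalization. Tool versions and the annotation were not given in the sources used here. The deposited values are log2(normalized FPKM + 1) for 33299 rows per library, a unit read from their range. Here 2^value - 1 was summed over the rows of a symbol, and ratios were taken of FPKM + 1. The deposited values summed to 521666 FPKM over all rows with HBS and 580717 FPKM with PC-NVs, so the 2 libraries did not share one distribution. No further normalization was applied in the main setting, because the authors had applied their own and the genes were defined on the deposited values. Symbols with a mean of at least 1 FPKM over both libraries were counted.

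Fragments were estimated from FPKM, the length of the longest protein-coding transcript in GENCODE M21 (GRCm38, the assembly of mm10) and the worth of 1 fragment, the most frequent low value of FPKM times kb (0.0749 and 0.0859) over 2189 genes with a single transcript above 1500 nt. Intervals at 95% (Wilson for ratios, exact Poisson for levels) cover counting error only and depend on the length assumed. The rule for named genes took all members, the genes of 8 related lists past 2-fold or, where none was, the most abundant, and 5 symbols nearest to the member with the largest ratio. Neighbouring genes, uncalled counterparts and marker genes were named besides. Of the list symbols, 5 were matched by a RefSeq synonym and 1 had no row. The members and lists were chosen with earlier results of these data known. Calculations were tested on simulated data. The software was scipy 1.17.1, pandas 2.3.3, numpy 2.4.6 and matplotlib 3.10.9 under Python 3.11.15. Alternatives were tried for scaling, pseudocount, summing of rows, filter and fold threshold.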

Additional observations from a re-analysis of the deposited data

How the results depend on the processing

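No member was more than 2-fold higher or lower with values as deposited. This count stayed at 0 under quantile normalization, upper-quartile scaling, median centring, a pseudocount of 0.1 FPKM and no filter. In these settings 1.72% to 3.07% of all genes were higher and 0.591% to 1.70% lower. With so few members, a count of 0 lies near those shares and says little about the members. The count was also 0 with the highest row of a symbol, a mean of at least 8 FPKM and a fold above 4. Those settings could not raise it, because each member had 1 row and a stricter filter or fold only removes genes. The count became 3 higher (Vcam1, Sele and Selp) with a fold above 1.5, by the lower threshold, where 5.47% of all genes were higher. It became 1 higher (Selp) without a pseudocount, a setting chosen after seeing the data, where 3.25% of all genes were higher. Of 60 alternative log2 ratios of single members, none changed sign, and 58 moved by less than the counting error. Those that moved by more were Vcam1 (0.74) and Alcam (0.04), both under quantile normalization. Part of the 60 was fixed in advance. Icam2 and Madcam1 rest on so few fragments that their counting error was too wide for such settings to exceed. The highest row of a symbol could move no ratio, since each member had 1 row. Median centring shifted all ratios by the same small amount, and a change of pseudocount cannot change a sign. Scaling moved the median of all genes by at most 0.03, to -0.04.

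No paired analysis was possible because each condition has 1 library, which also means that no replicate was left out. Depth limits Icam2 and Madcam1, which rest on 10 fragments or fewer in each library.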
